A study of Sus scrofa with 6 samples.

Results

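The genes of 10 cardiac potassium channel subunits were examined in the ventricular tissue of Tibetan minipigs: KCND3, KCNIP2, KCNH2, KCNQ1, KCNJ2, KCNJ3, KCNJ5, KCNJ8, KCNJ11 and ABCC9. They were taken by gene name from a table of 13288 genes, and all 10 were found in it. RNA was sequenced from 3 sham minipigs, which had the chest opened without constriction, and from 3 DAC minipigs, in which the descending aorta was constricted by a suture (descending aortic constriction). All animals were male, and tissue was collected 12 weeks after surgery. The methods of the study name no genetic change, and they name anaesthetics for the surgery and penicillin after it. Each library came from 1 minipig. The sham libraries are replicates 1 to 3, the DAC libraries are numbered from 4 to 6, and the labels do not say which ventricle was sampled.

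Potassium channels carry the outward currents that end the cardiac action potential and hold the resting potential between beats. KCND3 forms the pore of the transient outward current of early repolarization, with KCNIP2 as its calcium-binding accessory subunit. KCNH2 and KCNQ1 form the rapid and the slow delayed rectifier currents of late repolarization, and KCNJ2 forms the inward rectifier current that sets the resting potential. KCNJ3 and KCNJ5 assemble into the channel that acetylcholine opens through G protein βγ subunits, best known from the atria and the pacemaker nodes. KCNJ8 and KCNJ11 are pores of ATP-sensitive channels, which open when the energy state of the cell falls, and ABCC9 is their sulfonylurea receptor subunit. Reduced repolarizing currents are a known feature of hypertrophied and failing hearts.

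Values are FPKM, fragments scaled by transcript length and by the mapped fragments of the library, so levels can be compared between genes per length. Samples summed to 281377 to 308771 FPKM over all genes, and read depth is unknown. Mitochondrially encoded genes held 24.0% to 25.3% of the sum in the sham samples, 27.1% to 27.2% in DAC replicates 4 and 6, and 32.8% in DAC replicate 5. The 16 cardiomyocyte markers analysed summed to between 19611 and 20457 FPKM in the sham samples and between 18597 and 21498 FPKM in the DAC samples. Of the 16, only RYR2 passed the test (limma, unadjusted P under 0.05), against 8.51% of all genes tested. RYR2 was lower in DAC, as were 5.27% of all genes tested at this threshold. The 10 fibroblast markers summed to between 538 and 621 FPKM in the sham samples and between 752 and 855 FPKM in the DAC samples. Of the 10, 5 passed the same test, against 8.51% of all genes. All 5 were higher in DAC, against 3.25% of all genes. They were LUM, COL1A1, COL1A2, COL3A1 and POSTN. The log2 fold changes of the 5 not called were 0.24 (PDGFRA), -0.012 (DCN), -0.022 (TCF21), 0.080 (DPT) and 0.49 (FAP). In bulk tissue, fewer cells of a type and less RNA per cell cannot be told apart. The part of these shifts in the results for the channel genes was not tested, except by the scalings given with them.

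Over all 6 samples, KCNIP2 was the most abundant of the 10 transcripts, at a mean of 161 FPKM, and KCND3 was the least abundant, at 0.758 FPKM. KCNIP2 stood above 98.4% of all genes tested. The order below KCNIP2 was KCNJ5 (51.4 FPKM), KCNQ1 (31.1), ABCC9 (30.2), KCNH2 (26.0), KCNJ3 (23.2), KCNJ2 (20.6), KCNJ8 (13.6) and KCNJ11 (2.32). KCNIP2 was the highest in 6 of 6 samples, and KCNJ8, KCNJ11 and KCND3 followed each other in the same order in 6 of 6. The neighbours in the middle changed places between minipigs. KCNQ1 was above ABCC9 in 4 of 6 samples, and KCNH2 was above KCNJ3 in 3 of 6. The listed positions of KCNJ8, KCNJ11 and KCNJ2 cover 166044, 8200 and 12836 bases, against 8476, 3704 and 28673 in RefSeq. What this does to their levels and to the order was not tested.

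**Figure D1:**
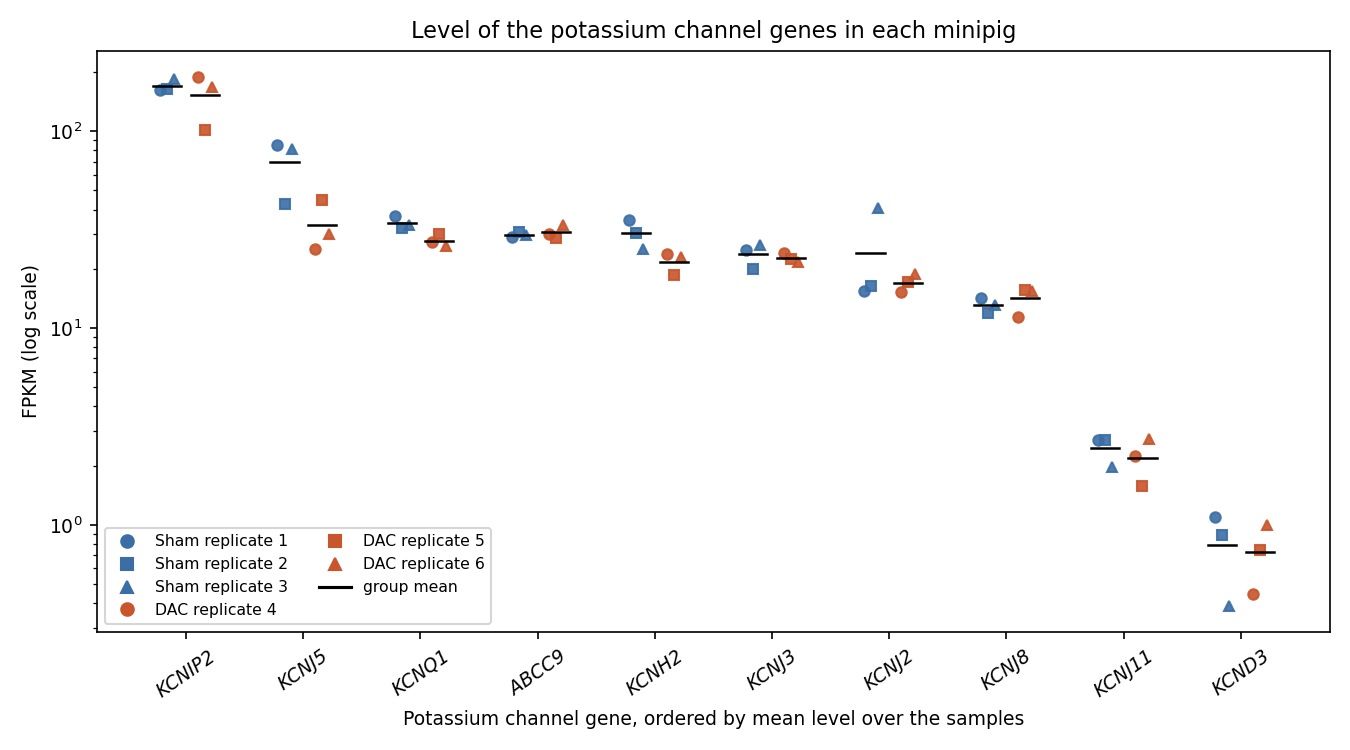
FPKM of each potassium channel gene on a log axis, with 1 point for each minipig (blue, sham; orange, DAC) and a black line at the mean of each group of 3. The DAC points of KCNQ1 and KCNH2 lie below all sham points, and 2 sham points of KCNJ5 lie far above its other 4 points.

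For the comparison of DAC with sham, log2(FPKM + 1) was tested with limma over all genes that reached 1 FPKM in 3 or more samples. Of the 10 potassium channel genes, 9 met this filter, and KCND3, which reached 1 FPKM in sham replicate 1 alone, did not. At the threshold of the study, an unadjusted P under 0.05, KCNJ5, KCNH2 and KCNQ1 were lower in the DAC ventricle, and no member was higher. The 3 called genes are 3 of 9 tested, against 8.51% of all 11029 genes tested. In the downward direction alone, the background was 5.27%, and in the upward direction it was 3.25%. No gene of the table reached an adjusted P under 0.05 (0%), while 939 genes had an unadjusted P under 0.05 from limma and 889 had one when the variance of each gene was estimated on its own. The mean was lower in DAC for 7 of the 9 members, against 5884 of all 11029 genes tested. The median log2 fold change of the members was -0.20, against -0.016 over all genes tested. This median was -0.046 without DAC replicate 5, the sample with the lowest value of KCNIP2, KCNJ11, KCNH2 and ABCC9. The groups did not overlap for KCNH2 and KCNQ1, 2 of the 9 members, against 14.9% of all genes tested.

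**Figure D2:**
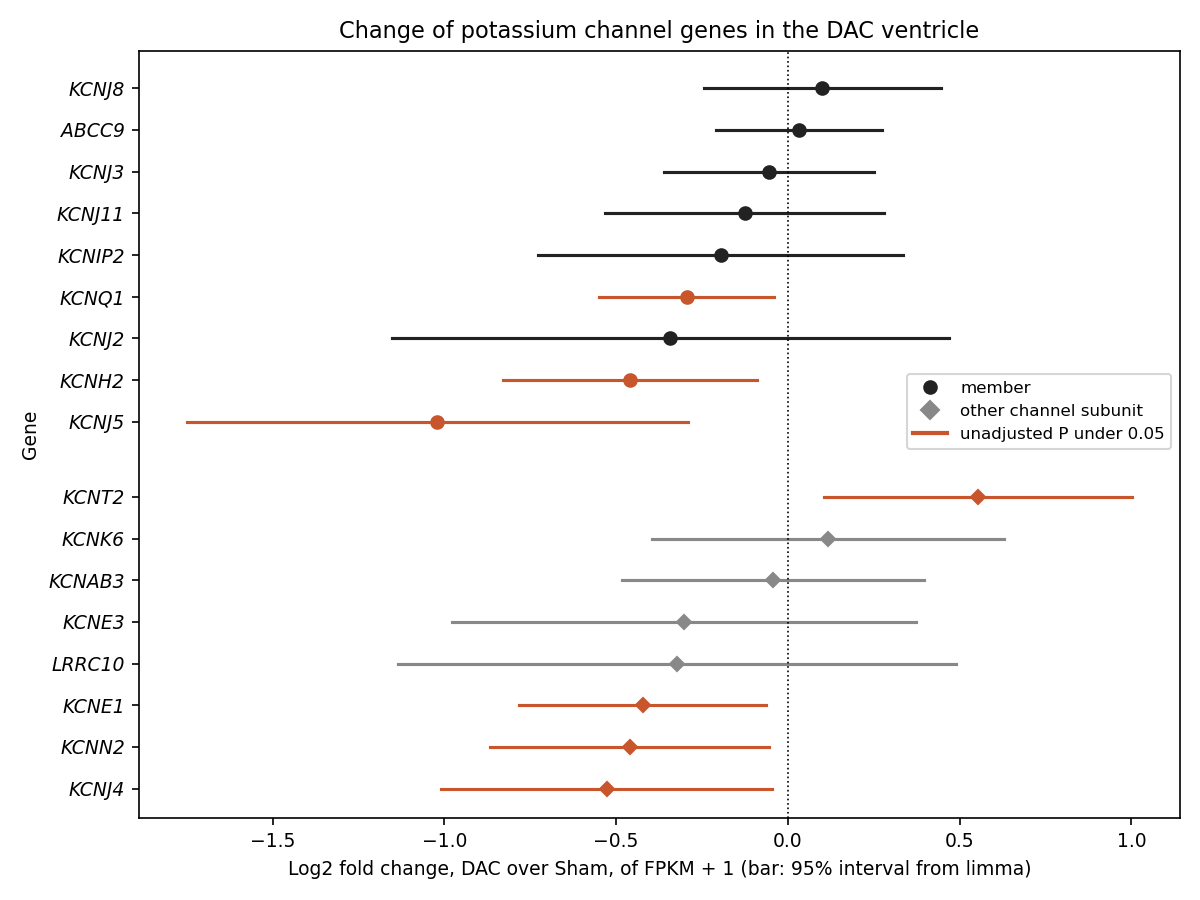
Log2 fold change of DAC over sham for the 9 members tested (circles) and 8 other genes tested (diamonds), each with its 95% interval from limma. The diamonds are genes listed as other potassium channel subunits, and they include LRRC10, which is not an established one. Orange marks an unadjusted P under 0.05: 3 members and 3 other subunits are lower in DAC, and KCNT2 alone is higher.

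KCND3, the pore of the transient outward current (ENSSSCG00000026680, chromosome 4 from 108401895 to 108621509 on susScr11, plus strand), was near the lower end of what the table lists. It was at 1.09, 0.886 and 0.389 FPKM in the sham samples and at 0.445, 0.742 and 0.994 FPKM in the DAC samples. The groups overlapped over their whole range, and the difference of the mean log2(FPKM + 1), -0.041, was not tested in the main comparison. Its partner KCNIP2 (ENSSSCG00000010570, chromosome 14 from 112857062 to 112876440, minus strand) was at 161, 164 and 185 FPKM in the sham samples. In the DAC samples KCNIP2 was at 188, 102 and 169 FPKM, so DAC replicate 4 held the highest value of all and DAC replicate 5 the lowest. KCNIP2 had a log2 fold change of -0.20 with a 95% interval from -0.73 to 0.34 (adjusted P = 0.821 from limma). Without DAC replicate 5 the log2 fold change was 0.070, of the opposite sign.

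KCNIP2 was between 137 and 476 times as abundant as KCND3 within a minipig. The log2 of this ratio was 7.88 ± 0.896 (SD, n = 3) in the sham group and 7.74 ± 0.862 (SD, n = 3) in the DAC group, and the exact two-sided permutation P of the difference was 0.7. KCND3 varied 2.80-fold among the sham samples, while KCNIP2 varied 1.15-fold there. KCNA4, another pore of transient outward current, was between 0.0536 and 0.597 FPKM over the 6 samples, and KCND2 was not analysed here.

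KCNH2, the pore of the rapid delayed rectifier and the channel that many drugs that prolong the QT interval block (ENSSSCG00000016448, chromosome 18 from 6243524 to 6279111, plus strand), was at 35.6, 30.3 and 25.2 FPKM in the sham samples. It was at 23.6, 18.6 and 22.9 FPKM in the DAC samples, all below the lowest sham sample. The group means were 30.3 ± 5.18 FPKM (SD, n = 3) in sham and 21.7 ± 2.74 FPKM (SD, n = 3) in DAC, a ratio of 0.715. The log2 fold change of KCNH2 was -0.46 (standard error 0.16, 95% interval from -0.83 to -0.090, adjusted P = 0.546 from limma). It stayed between -0.58 and -0.34 over 15 alternatives. The call was lost when sham replicate 1 (-0.34), sham replicate 2 (-0.46) or DAC replicate 5 (-0.36) was left out, and with the variance of the gene on its own. After scaling each sample to its cardiomyocyte markers, KCNH2 was still called, at -0.40.

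KCNQ1, the pore of the slow delayed rectifier (ENSSSCG00000039556, chromosome 2 from 1675360 to 1989111, plus strand), was at 37.2, 32.4 and 33.5 FPKM in the sham samples and at 27.5, 30.0 and 26.0 FPKM in the DAC samples. The groups did not overlap, and KCNQ1 had one of the smallest spreads among the members, with an SD of 7.25% of the mean in sham and 7.40% in DAC. The means were 34.4 ± 2.49 FPKM (SD, n = 3) and 27.8 ± 2.06 FPKM (SD, n = 3), a ratio of 0.810. The log2 fold change of KCNQ1 was -0.29 (standard error 0.11, 95% interval from -0.55 to -0.040, adjusted P = 0.555 from limma). This call was lost under 8 of 15 alternatives, with a log2 fold change between -0.35 and -0.23 over all of them. They were the 4 scalings, the smallest change being -0.23 after cardiomyocyte marker scaling, and leaving out sham replicate 1 (-0.24), sham replicate 3 (-0.31), DAC replicate 4 (-0.29) or DAC replicate 6 (-0.25). KCNQ1 is known to host an antisense RNA, and whether reads were assigned by strand is not given in the sources used here.

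KCNE1, the accessory subunit that slows KCNQ1 channels (ENSSSCG00000012049, chromosome 13 from 198051284 to 198059296), was at 67.3, 58.5 and 57.8 FPKM in the sham samples and at 40.0, 41.4 and 56.0 FPKM in the DAC samples. All DAC samples were below all sham samples, with DAC replicate 6 close to the lowest of them. KCNE1 was lower by limma, with a log2 fold change of -0.42, a standard error of 0.15 and an adjusted P = 0.553. The call was lost when sham replicate 1 (-0.35), DAC replicate 4 (-0.34) or DAC replicate 5 (-0.36) was left out, and with the variance of the gene on its own. The ratio of KCNE1 to KCNQ1 was 1.81, 1.81 and 1.72 in the sham samples and 1.46, 1.38 and 2.15 in the DAC samples. The log2 ratio differed by -0.13 between the groups (exact two-sided permutation P = 0.6), so no shift between pore and accessory subunit was detected, in a design whose smallest possible P is 0.1. The log2 ratio of KCNH2 to KCNQ1 differed by -0.17 (exact two-sided permutation P = 0.5).

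KCNJ2, the main pore of the inward rectifier current (ENSSSCG00000039947, chromosome 12 from 10349409 to 10362244, minus strand), was at 15.3, 16.3 and 40.7 FPKM in the sham samples. In the DAC samples it was at 15.2, 17.1 and 18.8 FPKM. Sham replicate 3 was at 2.65 times the lowest sham sample, while the other 5 samples lay between 15.2 and 18.8 FPKM. For KCNJ2 the log2 fold change was -0.34 with a 95% interval from -1.15 to 0.47 (adjusted P = 0.791 from limma), and it was 0.093 without sham replicate 3.

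Of the 10 other inward rectifier pores listed, KCNJ4 was the only one analysed here, and its level was above that of KCNJ2 in every DAC and in 2 of the 3 sham samples. KCNJ4 (ENSSSCG00000000106, chromosome 5 from 9541906 to 9548989) forms a channel of the same subfamily as KCNJ2. It was at 41.8, 45.0 and 36.3 FPKM in the sham samples and at 29.8, 20.5 and 36.1 FPKM in the DAC samples, so the groups were apart by the distance between 36.3 and 36.1 FPKM. KCNJ4 changed by -0.53 on the log2 scale (standard error 0.20, adjusted P = 0.581 from limma). Without DAC replicate 5, the lowest sample, it was -0.31 and no longer called. The call was also lost without sham replicate 1 (-0.51), sham replicate 2 (-0.46) or DAC replicate 4 (-0.57), with sample weights (-0.46) and with the variance of the gene on its own.

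KCNJ5, a pore of the acetylcholine-activated channel (ENSSSCG00000021573, chromosome 9 from 55836701 to 55864941, plus strand), had the largest change among the 9 members tested. It was at 85.1, 42.7 and 81.0 FPKM in the sham samples and at 25.1, 44.9 and 29.9 FPKM in the DAC samples. Sham replicates 1 and 3 were far above all others, and sham replicate 2 lay just below DAC replicate 5, so the groups overlapped. The means were 69.6 ± 23.4 FPKM (SD, n = 3) in sham and 33.3 ± 10.3 FPKM (SD, n = 3) in DAC, a ratio of 0.478. The log2 fold change of KCNJ5 was -1.02 (standard error 0.31, 95% interval from -1.75 to -0.29, adjusted P = 0.509 from limma). It was between -1.33 and -0.84 with each sample left out in turn and called each time. The unadjusted P from limma was only just under 0.05 without sham replicate 1, sham replicate 3 or DAC replicate 4. Of the 15 alternatives, only the variance of the gene on its own lost the call. Over all 15 alternatives the adjusted P from limma or from the test on each gene alone was between 0.330 and 0.896.

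KCNJ3, the subunit that pairs with KCNJ5 (ENSSSCG00000036078, chromosome 15 from 62264004 to 62416294, plus strand), was at 24.8, 19.9 and 26.5 FPKM in the sham samples and at 24.0, 22.3 and 21.7 FPKM in the DAC samples. The DAC samples all lay inside the range of the sham samples. KCNJ3 had a log2 fold change of -0.056 with a 95% interval from -0.36 to 0.25 (adjusted P = 0.920 from limma). Within a minipig, the ratio of KCNJ3 to KCNJ5 was 0.291, 0.466 and 0.327 in sham and 0.956, 0.497 and 0.725 in DAC. The ratio was thus higher in every DAC minipig than in every sham minipig. The difference of the log2 ratio was 0.99, and its exact two-sided permutation P was 0.1, the smallest that 3 samples against 3 can give. Of 7 subunit ratios compared, it was the only one whose groups did not overlap, and its P adjusted over the 7 by the Benjamini-Hochberg method was 0.7, also from the exact permutation test. The difference was between 0.76, without DAC replicate 4, and 1.23, without DAC replicate 5.

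**Figure D3:**
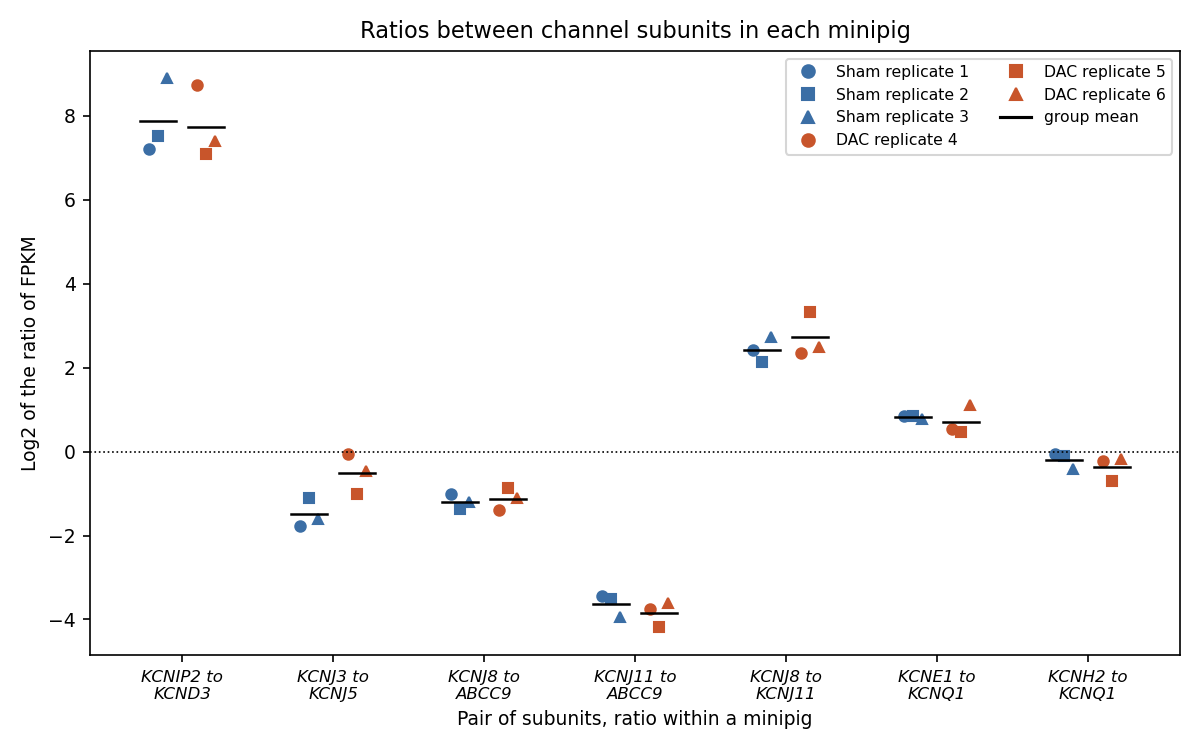
Log2 of the ratio of FPKM between pairs of subunits, with 1 point for each minipig and a black line at the group mean. For KCNJ3 to KCNJ5 the sham points lie between -1.78 and -1.10 and the DAC points between -1.01 and -0.066, and for the other 6 pairs the groups overlap.

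Atrial tissue is rich in this channel, so atrial markers are given beside it. The 3 atrial markers analysed, MYL4, SLN and NR2F2, summed to 7.75, 8.38 and 6.46 FPKM in the sham samples and to 15.6, 7.62 and 34.3 FPKM in the DAC samples. None of the 3 passed the test, and their sum lay within the sham range in DAC replicate 5 and above it in DAC replicates 4 and 6. The defining atrial genes MYL7, NPPA and MYH6 were not analysed here. For KCNJ5, the log2 fold change was -0.96 and still called after scaling to the mean log2(FPKM + 1) of the cardiomyocyte markers. This mean, unlike their sum, gives each marker the same weight. It was 9.57, 9.51 and 9.53 in the sham samples and 9.44, 9.43 and 9.56 in the DAC samples.

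Of 21 listed receptors, G protein subunits and regulators upstream of the acetylcholine-activated channel, 17 were tested. The unadjusted threshold was passed by 3 of the 17, against 8.51% of all genes, with 2 lower (5.27% of all genes) and 1 higher (3.25%). GNB3, a G protein β subunit, was at 31.6, 15.0 and 20.9 FPKM in the sham samples and at 15.1, 7.38 and 8.74 FPKM in the DAC samples. Its log2 fold change was -1.04 (adjusted P = 0.512 from limma). The γ subunit GNG7 was at 17.5, 15.1 and 16.6 FPKM in sham and at 13.1, 8.60 and 13.7 FPKM in DAC, with a log2 fold change of -0.46 (adjusted P = 0.571 from limma). The γ subunit GNG12 was higher in DAC, with a log2 fold change of 0.36 (adjusted P = 0.585 from limma). CHRM2, the muscarinic receptor that opens the channel, was at 15.4, 12.7 and 15.4 FPKM in sham and at 17.6, 15.5 and 16.2 FPKM in DAC. The log2 fold change of CHRM2 was 0.17, which did not pass, although the groups did not overlap (adjusted P = 0.694 from limma). The median log2 fold change of the 17 genes was 0.12.

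KCNJ11, the pore of the ATP-sensitive channel of the ventricular cell membrane (ENSSSCG00000042162, chromosome 2 from 41757356 to 41765555, plus strand), was at 2.68, 2.71 and 1.96 FPKM in the sham samples and at 2.24, 1.57 and 2.74 FPKM in the DAC samples. KCNJ11 had a log2 fold change of -0.13 with a 95% interval from -0.53 to 0.28 (adjusted P = 0.855 from limma), and it was 0.020 without DAC replicate 5. KCNJ8, the pore that predominates in vascular smooth muscle and pericytes (ENSSSCG00000000573, chromosome 5 from 51537774 to 51703817, plus strand), was at 14.3, 11.9 and 13.0 FPKM in sham and at 11.4, 15.7 and 15.4 FPKM in DAC. Its lowest and its highest value were both DAC samples. For KCNJ8 the log2 fold change was 0.10 with a 95% interval from -0.24 to 0.45 (adjusted P = 0.865 from limma).

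ABCC9, the receptor subunit shared by both pores (ENSSSCG00000000571, chromosome 5 from 51536526 to 51673583, plus strand), was at 28.9, 30.8 and 29.9 FPKM in the sham samples and at 29.9, 28.6 and 33.4 FPKM in the DAC samples. It was the least variable member within the sham group, with an SD of 3.19% of the mean. ABCC9 had a log2 fold change of 0.033 with a 95% interval from -0.21 to 0.27 (adjusted P = 0.943 from limma). The position of KCNJ8 in the table covers 166044 bases and nearly the whole of ABCC9 on the same strand, while RefSeq gives KCNJ8 8476 bases on Sscrofa11.1, from 51695927 to 51704402, beyond the end of ABCC9. How reads in the shared stretch were assigned is not given in the sources used here, so the levels of KCNJ8 and ABCC9 are uncertain.

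The ratio of KCNJ8 to ABCC9 was between 0.385 and 0.494 in the sham samples and between 0.383 and 0.547 in the DAC samples. KCNJ8 was 5.32, 4.38 and 6.67 times as abundant as KCNJ11 in sham and 5.11, 9.99 and 5.63 times in DAC. KCNJ8 was thus the more abundant pore transcript in 6 of 6 samples. The exact two-sided permutation P was 0.8 for KCNJ8 to ABCC9, 0.5 for KCNJ11 to ABCC9 and 0.6 for KCNJ8 to KCNJ11. Of the 11 pericyte markers, which include KCNJ8 and ABCC9, none passed the test, and they summed to between 173 and 192 FPKM in sham and between 161 and 212 FPKM in DAC. ABCC8, the sulfonylurea receptor of pancreatic β cells that also occurs in the atria, was between 0.353 and 0.545 FPKM in sham and between 0.131 and 0.288 FPKM in DAC, under the filter for testing.

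The 4 lists of other potassium channel subunits named 82 genes, of which 21 were in the table and 9 were tested. Of these 9, 3 were lower and 1 was higher at an unadjusted P under 0.05, against 5.27% and 3.25% of all genes. Their median log2 fold change was -0.30, against -0.016 over all genes, and 2 of the 9 had groups that did not overlap, against 14.9%. The 9 include LRRC10 (-0.32), which is not an established potassium channel subunit, so this median is not that of channel subunits alone. Among the tandem-pore and the calcium- or sodium-activated channels, 3 were tested, and 2 passed. KCNN2, a small-conductance calcium-activated channel (chromosome 2 from 118439403 to 118882296), was at 7.04, 4.33 and 6.62 FPKM in sham and at 3.99, 3.65 and 4.40 FPKM in DAC. Sham replicate 2 lay below DAC replicate 6, so the groups overlapped. Its log2 fold change was -0.46 (adjusted P = 0.563 from limma). The call was lost with the variance of the gene on its own and when sham replicate 1 (-0.35), sham replicate 3 (-0.39), DAC replicate 4 (-0.46) or DAC replicate 5 (-0.41) was left out.

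KCNT2, a sodium-activated channel, was at 2.65, 2.42 and 3.98 FPKM in sham and at 5.65, 3.76 and 5.21 FPKM in DAC. It was the only potassium channel subunit tested that was called higher, with a log2 fold change of 0.55 (adjusted P = 0.548 from limma). The groups overlapped, and the call was lost with the variance of the gene on its own and when sham replicate 1 (0.49), sham replicate 2 (0.45), DAC replicate 4 (0.46) or DAC replicate 6 (0.51) was left out. Among the 21 genes listed as accessory subunits, 4 were tested, and KCNE1 alone passed, against 8.51% of all genes. All 4 had a lower mean in DAC, as did 5884 of all 11029 genes tested. KCNE3 followed KCNE1 at a log2 fold change of -0.30 (adjusted P = 0.781 from limma). LRRC10, also among the 4, is a leucine-rich repeat protein of cardiomyocytes and not an established potassium channel subunit.

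Of 18 tested scaffolds and trafficking partners, 0 passed the unadjusted threshold of limma, against 8.51% of all genes. The smallest P was that of NEDD4L, a ubiquitin ligase that acts on KCNQ1 and other channels, with a log2 fold change of -0.29 (adjusted P = 0.596 from limma). Next was AKAP9, which holds protein kinase A at the slow delayed rectifier. AKAP9 was between 7.47 and 8.40 FPKM in sham and between 8.66 and 9.94 FPKM in DAC (adjusted P = 0.629 from limma).

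All 18 listed transcription factors of cardiac potassium channel genes were tested. Of these 18, 3 passed, against 8.51% of all genes. All 3 were higher in DAC, against 3.25% of all genes, and the median log2 fold change of the list was -0.0056. IRX5, an Iroquois factor that represses the transient outward channel gene KCND2 in mouse ventricle, was at 6.48, 15.4 and 6.45 FPKM in sham and at 24.9, 19.2 and 19.8 FPKM in DAC. The groups did not overlap, and the log2 fold change was 1.19 (adjusted P = 0.484 from limma). ETV1, a factor of fast-conducting cardiomyocytes, was at 1.22, 3.22 and 1.93 FPKM in sham and at 5.21, 3.45 and 5.28 FPKM in DAC, with a log2 fold change of 0.89 (adjusted P = 0.5001 from limma). MEF2A, a muscle transcription factor, had a log2 fold change of 0.29 (adjusted P = 0.563 from limma). Of the 2 related Iroquois factors listed, IRX3 was at a log2 fold change of 0.17 (adjusted P = 0.846 from limma). IRX4 went the other way, at -0.45 (adjusted P = 0.692 from limma). KLF15, which controls KCNIP2 rhythmically in mice, was at -0.31 (adjusted P = 0.661 from limma).

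The direction of the 3 called members was the same under all 15 alternatives, which comprised scalings, filters, another pseudocount, other variance estimates and each sample left out in turn. KCNJ5 passed in 14 of the 15, KCNH2 in 11 and KCNQ1 in 7. Without sham replicate 1, KCNJ5 was the only member called, and with the variance of each gene on its own, KCNQ1 was. The 6 other tested members passed under none of the alternatives, of which KCNJ11 had 14 because the minimum of 5 FPKM excluded it. Of these members, KCNIP2, KCNJ2, KCNJ3, KCNJ11 and ABCC9 changed sign under at least 1 alternative.

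**Figure D4:**
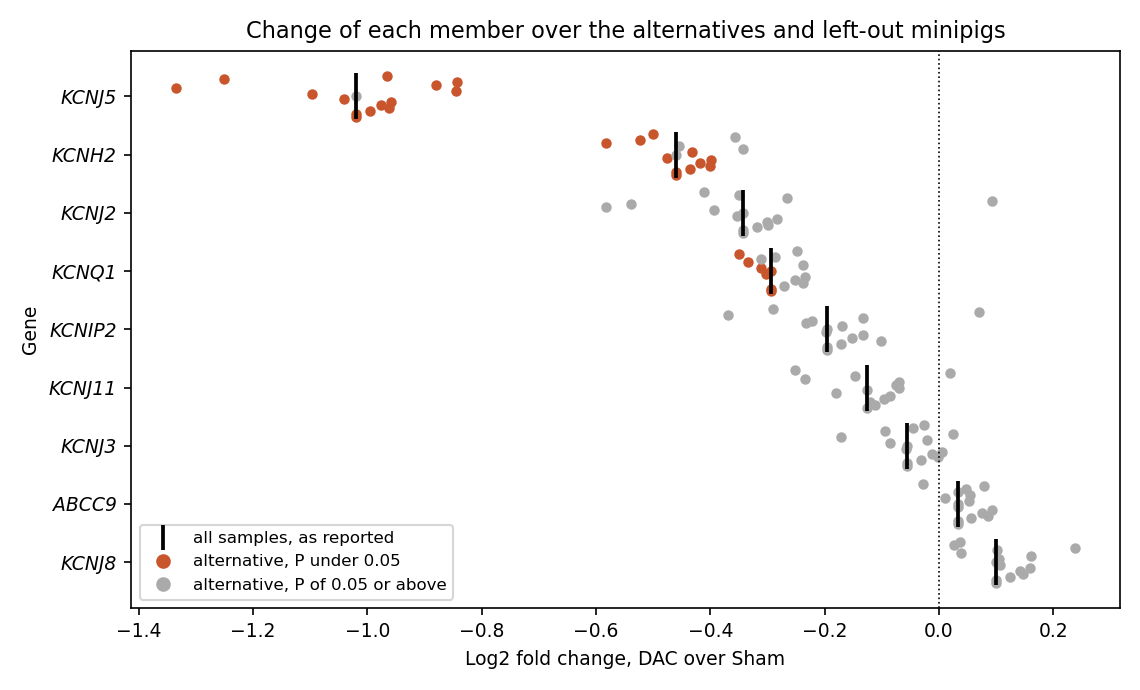
Log2 fold change of DAC over sham for each tested member, with all 6 samples (black bar) and under each alternative (points; orange, P under 0.05). KCNJ5, KCNH2 and KCNQ1 stay left of 0 in every setting, and the isolated points right of 0 for KCNJ2 and KCNIP2 are those without sham replicate 3 and without DAC replicate 5.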

How the data were processed

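The authors deposited one table of FPKM with a column for each of the 6 minipigs. The submitters' processing notes name HISAT2 and susScr11, and the program and annotation that gave the FPKM are not given in the sources used here. Ratios of low values between samples showed no steps from whole reads (the commonest ratio occurred in at most 6 of at least 6970 genes), so depth is unknown and no counting error is given. A table of gene identifiers gave the symbols of 519 unnamed genes, KCNE1 among them. RefSeq positions are those of Sscrofa11.1.

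Log2(FPKM + 1) was compared with limma 3.58.1 in R 4.3.3 (moderated test, variance trend), for the 11029 genes that reached 1 FPKM in 3 or more samples, with Benjamini-Hochberg adjustment. Fold changes on this scale understate those of low genes. P-values measure the spread between 3 minipigs a group. Unadjusted P-values are given as passing or not passing 0.05, and adjusted ones in full. Subunit ratios used exact permutation tests. The limma comparison was tested on simulated data, and the subunit ratios, the scalings and the fits with a sample left out were not. The members, gene lists and alternatives were chosen with earlier results of these data known. Named beyond the members were the genes of each list past the threshold or, where fewer than 2 passed, the 2 with the smallest P. IRX3, IRX4, KLF15, CHRM2, KCNA4, ABCC8, KCNE4, RGS6 and LRRC10 were named after their values were seen. Protein, promoter and transcript sequences were not used here. Of the other channel subunits tested, 1 is counted but not reported here.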

Additional observations from a re-analysis of the deposited data

How the results depend on the processing

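The 3 called members kept their direction in all alternatives. The number of members called was 1 with the variance of each gene on its own and between 1 and 2 with 1 sample left out. Of the 62 genes tested on the further lists, 10 were called (8.51% of all genes were), against 6 with a minimum of 5 FPKM (over all genes 579 of 6271), 5 with the variance of each gene on its own (889 of 11029), and 4 to 10 with 1 sample left out (600 to 1029 of 11029). The members' median log2 fold change was -0.25 with a minimum of 5 FPKM, -0.12 with quantile normalization, -0.15 without the mitochondrially encoded genes and -0.13 after cardiomyocyte marker scaling. With 1 sample left out it was between -0.27 and -0.046. The sign of the log2 fold change turned for KCNIP2 (0.070) and KCNJ11 (0.020) without DAC replicate 5, for KCNJ2 (0.093) and KCNJ3 (0.025) without sham replicate 3, for KCNJ3 also after cardiomyocyte marker scaling (0.0048), and for ABCC9 (-0.029) without DAC replicate 6. None of these was called. With 1 sample left out the range was -0.37 to 0.070 for KCNIP2, -0.58 to 0.093 for KCNJ2, -0.17 to 0.025 for KCNJ3, and -0.029 to 0.079 for ABCC9. The log2 ratio of KCNIP2 to KCND3, -0.13 in all samples, turned to 0.37 when sham replicate 3 was left out, 0.19 when DAC replicate 5 was and 0.035 when DAC replicate 6 was, and lay between -0.62 and 0.37 with 1 sample left out. That of KCNJ8 to ABCC9, 0.073, turned to -0.016 without sham replicate 2 and -0.053 without DAC replicate 5 (range -0.053 to 0.21), and that of KCNJ8 to KCNJ11, 0.30, to -0.0028 without DAC replicate 5 (range -0.0028 to 0.48).

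Over all genes, 581 were called lower and 358 higher. These were 479 and 429 after median scaling, 469 and 418 with quantile normalization, 407 and 500 without the mitochondrially encoded genes, and 356 and 517 after cardiomyocyte marker scaling. Why the results differ between the settings was not tested. No paired analysis was made, because the study assigned different minipigs to the 2 groups at random and names no pairs. With 3 minipigs a group and unknown depth, a P over 0.05 does not show that a channel gene was unchanged.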

Other observations

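Several channel and regulator genes lay under the filter and were not tested. RGS6, a regulator that shortens signaling through the acetylcholine-activated channel, was at 0.422, 0.750 and 0.726 FPKM in the sham samples and at 8.94, 0.796 and 2.65 FPKM in the DAC samples. All DAC values were above all sham values, but DAC replicate 5 was above the highest sham sample by little. KCNE4, an accessory subunit that inhibits KCNQ1 channels, was between 0.327 and 0.573 FPKM in sham and between 0.276 and 0.307 FPKM in DAC. MYL4, an atrial light chain, was at 9.22 and 17.6 FPKM in DAC replicates 4 and 6 and at 0.780 FPKM in DAC replicate 5, against 1.08 to 3.79 FPKM in the sham samples. The 2 conduction system markers analysed summed to 7.30 FPKM in DAC replicate 5 and to between 8.68 and 9.65 FPKM in the sham samples, and DAC replicates 4 and 6 lay above all of these, at up to 17.5 FPKM. RGS6, MYL4 and the sum of these markers were thus each higher in DAC replicates 4 and 6 than in DAC replicate 5. They were set side by side after their values were seen. Of the other atrial markers analysed, SLN had the same order, at 1.44, 0.932 and 9.83 FPKM in DAC replicates 4, 5 and 6. NR2F2 did not, at 4.93, 5.91 and 6.87 FPKM.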
